A study of Mus musculus with 6 samples.

Results

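Cd82, Cd9, Cd81, Cd63, Cd37, Cd53 and Cd151 encode 7 tetraspanins, and their rows were taken by gene name from a table of 53278 genes measured by RNA-seq in group 2 innate lymphoid cells (ILC2s). The table also held 24 other genes of the family, so that 31 tetraspanins were listed in all. The 7 genes were chosen by name with their read counts in both groups already known, so their differences between groups are given as a description and without a test. Over the 3 isotype control libraries Cd53 was the most abundant of them per length, followed by Cd82, Cd81 and Cd37, while Cd63, Cd151 and Cd9 were low. Cd82 was 2.45 times its isotype control mean in the libraries labelled DTA-1 replicates 2 and 3, and 1.00 times that mean in the library labelled DTA-1 replicate 1.

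The ILC2s were sorted from visceral adipose tissue of C57BL/6 mice aged 8 weeks, all of which had received 3 intraperitoneal injections of 1 µg recombinant mouse IL-33. All cells were then kept for 48 h in recombinant IL-2 and IL-7, each at 10 ng/mL, with either an isotype control antibody (n = 3 libraries) or 5 µg/mL DTA-1 (n = 3 libraries). DTA-1 is an agonistic antibody to GITR, a TNF receptor family member encoded by Tnfrsf18, and the comparison asks how its ligation alters the ILC2 transcriptome. Each library was made from 10 ng of RNA. By the study's methods the sort kept cells positive for CD45, ST2 and CD117, and gated out cells with T cell, B cell, myeloid or erythroid surface markers or with FcεRI, the IgE receptor of mast cells and basophils. The labels do not say whether the libraries of a group came from separate mice or cultures, so that p-values measure the spread between these libraries, which may be technical. There was no group of cells without IL-33 or without IL-2 and IL-7, and all values hold for cells exposed to these cytokines. In such bulk libraries fewer cells with a transcript and less of it per cell cannot be told apart.

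Tetraspanins are small proteins that cross the membrane in 4 segments and expose a short and a long extracellular loop. They bind each other and other membrane proteins, such as integrins, immunoglobulin superfamily proteins and membrane proteases, and gather them into tetraspanin-enriched microdomains. Through these contacts they influence adhesion, receptor trafficking and the sorting of proteins into extracellular vesicles. Cd53 and Cd37 are largely restricted to leukocytes, whereas Cd81, Cd82, Cd9, Cd63 and Cd151 are found on many cell types.

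The DNA just before a listed start site of 3 of the genes is shown for reference, from RefSeq promoters on GRCm38.p6. Cd82 was taken as the abundant member with the widest spread between libraries, and Cd53 as the most abundant. Cd81 was taken as the one with the smallest absolute log2 fold change between the groups. Each stretch reads 5′ to 3′ on the strand of its gene and holds no exon of the GENCODE M21 annotation. Capitals mark the GC box GGGCGG, searched on both strands (CCGCCC on the other).
Cd82 (chr2:93462503-93462705, minus strand, inside the annotated gene, ending at the base before an alternative start site): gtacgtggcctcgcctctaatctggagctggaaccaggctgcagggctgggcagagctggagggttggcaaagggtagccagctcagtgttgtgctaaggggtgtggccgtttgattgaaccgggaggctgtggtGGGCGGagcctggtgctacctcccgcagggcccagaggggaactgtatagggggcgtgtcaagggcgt
Cd53 (chr3:106790150-106790399, minus strand, ending at the base before the start site): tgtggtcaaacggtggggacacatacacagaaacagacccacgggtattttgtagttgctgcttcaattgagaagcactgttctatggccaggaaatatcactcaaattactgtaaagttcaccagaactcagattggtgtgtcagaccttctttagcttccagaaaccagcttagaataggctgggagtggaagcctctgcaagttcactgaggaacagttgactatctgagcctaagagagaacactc
Cd81 (chr7:143052500-143052738, plus strand, ending 12 bases before the start site at 143052750): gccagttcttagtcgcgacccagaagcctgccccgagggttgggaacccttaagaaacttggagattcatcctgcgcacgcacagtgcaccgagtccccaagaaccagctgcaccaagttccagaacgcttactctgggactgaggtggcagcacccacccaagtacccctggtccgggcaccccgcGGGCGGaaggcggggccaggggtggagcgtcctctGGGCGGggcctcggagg
The Cd82 stretch held 1 GC box and 8 CpG dinucleotides in 203 bases, and the Cd81 stretch held 2 GC boxes and 15 CpG in 239 bases. The Cd53 stretch held no GC box and 2 CpG in 250 bases. RefSeq listed 11 start sites for the 7 genes, 4 of them for Cd82, and a GC box lay in the 250 bases before 6 of the 11. Among 32851 such windows of mouse genes 32.7% held one, and the median window held 6 CpG. The kappaB consensus motif was not found in any of the 4 Cd82 windows and was found in 1 of the 11, before a start site of Cd151, against 7.3% of all windows. A match or its absence describes only the letters in these windows.

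The total count was 34557215 to 35131329 in the isotype control libraries and 30569351 to 32492849 in the DTA-1 libraries. A level of 3 counts, taken as an approximate upper limit where 0 were counted, equalled 0.0848 to 0.097 normalized counts. Normalized counts are CPM after TMM scaling, and the limit takes no account of errors other than counting. The library labelled DTA-1 replicate 1 stood nearer to the isotype control libraries than to its own group. Its chi-square per degree of freedom across genes was 9.64 to 11.3 against the isotype control libraries and 27.1 and 28.2 against DTA-1 replicates 2 and 3. Those 2 libraries lay 11.4 from each other and 26.4 to 37.9 from the isotype control libraries. Values are therefore given with that library and without it. That library was set apart by these same counts, so calls and p-values without it depend on that choice and are a description. All 14 ILC2 identity genes looked for, such as Gata3 and Il1rl1, passed the filter on low counts, and Tnfrsf18 was at 657 to 756 normalized counts in the 6 libraries. The B cell genes Ms4a1, Pax5 and Blk were at 0 counts in every library.

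Cd82, also known as KAI1, is known as a metastasis suppressor and associates with integrins and growth factor receptors. It lies at chr2:93419111-93463140 on the minus strand (GRCm38). Isotype control replicates 1, 2 and 3 had 584, 545 and 551 normalized counts of Cd82, against 560.2, 1424 and 1322 for the DTA-1 replicates in the same order. DTA-1 replicates 2 and 3 were above all other libraries, while DTA-1 replicate 1 lay within the isotype control range, so that the groups overlapped. The isotype control mean was 560.2 ± 21.2 and the DTA-1 mean 1102 ± 472 (SD, n = 3 libraries), a ratio of 1.97. The log2 fold change was 0.98 (SE 0.35) with all 6 libraries and 1.29 (SE 0.06) without DTA-1 replicate 1. Leaving out DTA-1 replicate 2 instead gave 0.76. By rank of normalized counts among all genes, Cd82 was 218th to 227th in the isotype control libraries and in DTA-1 replicate 1, and 55th and 60th in DTA-1 replicates 2 and 3.

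The summed level of the 8 mast cell and basophil genes looked for was higher in the same libraries as Cd82. It was 16.5 to 21.9 normalized counts in the isotype control libraries, 16.1 in DTA-1 replicate 1, then 44.9 in DTA-1 replicate 2 and 33.2 in DTA-1 replicate 3. Cpa3, a mast cell carboxypeptidase, had 4.37 to 7.49 normalized counts with isotype control against 6.82, 19.4 and 12.8 with DTA-1. Cma1, a mast cell chymase, had 3.67 to 4.85 with isotype control against 3.69, 14.2 and 10.9 with DTA-1. Both were thus highest in DTA-1 replicates 2 and 3. Mcpt8, a basophil protease, had 0.656 to 1.16 with isotype control against 0.420, 0.192 and 0.690 with DTA-1, and another mast cell protease gene, Mcpt4, was at 0 counts in 4 of the 6 libraries and at 0.439 at most. Tpsb2, of the same list, had 4.38 to 6.04 with isotype control against 3.66, 8.26 and 4.96 with DTA-1. Fcer1a, a gene of FcεRI, had 0.765 to 2.85 with isotype control against 1.52, 2.63 and 3.11 with DTA-1. The sort had gated out cells bearing FcεRI, and the part of the transcripts of this list in the Cd82 values was not tested.

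**Figure D1:**
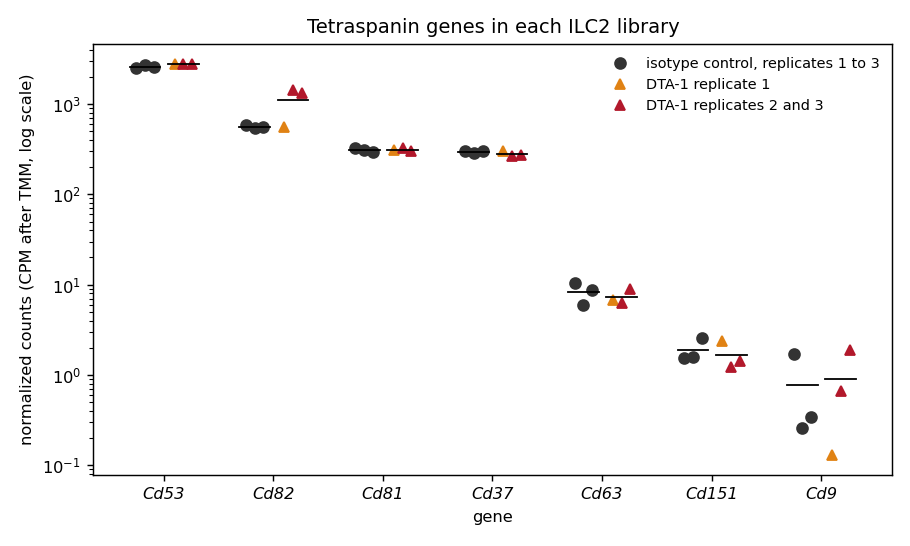
Normalized counts (log scale) of the 7 tetraspanin genes in each of the 6 libraries, with isotype control as circles, DTA-1 as triangles (DTA-1 replicate 1 in orange) and the mean of each group as a bar. Cd82 lies at 1424 and 1322 in DTA-1 replicates 2 and 3 against 545 to 584 in the other 4 libraries, whereas Cd53, Cd81 and Cd37 keep within a narrow band.

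Cd53 is a tetraspanin of most leukocytes that associates with integrins and other lymphocyte receptors, and it was the most abundant member in every library. It lies at chr3:106759921-106790149 on the minus strand. The isotype control libraries had 2525, 2681 and 2539.9 normalized counts, against 2751, 2807 and 2743 for the DTA-1 libraries. After TMM scaling all 3 DTA-1 libraries were higher than all 3 isotype control libraries, including DTA-1 replicate 1, with a ratio of means of 1.07. The log2 fold change was 0.10 (SE 0.06) with all libraries and 0.10 (SE 0.05) without DTA-1 replicate 1. With scaling by total counts in place of TMM it was 0.06, and the groups overlapped. Cd53 then took 0.254%, 0.272% and 0.258% of all counts with isotype control, against 0.278%, 0.272% and 0.269% with DTA-1. Cd53 ranked 17th to 21st of all genes by normalized counts.

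Cd53 and Cd82 together made up most of the counts of the 7 genes. Cd53 took 67.3% to 69.9% of them in the isotype control libraries, against 70%, 58.1% and 59% in the DTA-1 libraries. The share of Cd82 was 14.2% to 15.6% with isotype control, against 14.3%, 29.5% and 28.4% with DTA-1. The share of Cd82 was thus higher, and that of Cd53 lower, in DTA-1 replicates 2 and 3. The ratio of Cd82 to Cd53 counts, which does not depend on scaling between libraries, was 0.231, 0.203 and 0.217 with isotype control, against 0.204, 0.507 and 0.482 with DTA-1. The 7 genes together took 0.375% to 0.389% of all counts in the isotype control libraries, against 0.397%, 0.468% and 0.456% in the DTA-1 libraries.

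Cd81, a partner of integrins and of other lymphocyte receptors, lies at chr7:143052739-143067934 on the plus strand. The isotype control libraries held 326, 311 and 295 normalized counts of it, and the DTA-1 libraries 308, 325 and 302. The groups overlapped fully, the ratio of means was 1.00, and the log2 fold change was 0.00 (SE 0.06), or 0.01 (SE 0.07) without DTA-1 replicate 1. Across the 6 libraries the highest value was 1.11 times the lowest, against 2.61 times for Cd82. The number of Cd81 counts per Cd82 count was 0.535 to 0.571 in isotype control, 0.550 in DTA-1 replicate 1 and 0.228 in both DTA-1 replicates 2 and 3.

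Cd37, a leukocyte tetraspanin known best from B cells, lies at chr7:45233632-45239115 on the minus strand. It had 303, 288 and 302 normalized counts with isotype control, compared with 299, 266 and 273 with DTA-1. DTA-1 replicates 2 and 3 were lower than all other libraries, and DTA-1 replicate 1 lay within the isotype control range. The log2 fold change was −0.09 (SE 0.06) with all libraries and −0.14 (SE 0.06) without that library. Of the B cell genes looked for, Cd79b had 16.4 to 17.3 normalized counts with isotype control and 16.8 to 17.8 with DTA-1, while Ms4a1, Pax5 and Blk were at 0.

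Cd63, a tetraspanin of late endosomes, lysosomes and secretory granules that is widely used as a marker of exosomes, lies at chr10:128900989-128912822 on the plus strand. Its normalized count was low, at 10.3, 5.94 and 8.66 with isotype control against 6.76, 6.21 and 9.05 with DTA-1, from 194 to 366 counts in each library. The groups overlapped, with a log2 fold change of −0.18 (SE 0.24), or −0.12 (SE 0.27) without DTA-1 replicate 1. Leaving out single libraries moved it from −0.37 to 0.01, so that no direction could be given. The pseudogene Cd63-ps had 19.3 counts in all 6 libraries together, and reads of Cd63 that map equally well to it could have been divided between both.

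Cd151, which binds laminin-binding integrins, and Cd9, a tetraspanin of platelets and many other cells that takes part in cell fusion, were near the lower end of the genes tested. Cd151 (chr7:141467392-141471473, plus strand) had 54, 55.5 and 90 counts with isotype control, against 73.9, 38 and 45 with DTA-1. Cd9 (chr6:125460266-125494791, minus strand) had 61, 9 and 12 with isotype control, against 4, 21 and 61 with DTA-1. The spread of Cd9 within a group exceeded any difference between the groups, with the highest isotype control library 6.72 times the lowest after normalization. Its log2 fold change was 0.23 (SE 0.89), and it moved from −0.94 without DTA-1 replicate 3 to 1.60 without isotype control replicate 1. For Cd151 the log2 fold change was −0.17 (SE 0.39), with −0.52 without DTA-1 replicate 1 and 0.11 without isotype control replicate 3. The sign for Cd9 also turned without isotype control replicate 2 (−0.19) or 3 (−0.13), and that for Cd151 without DTA-1 replicate 2 (0.02), so that neither gene had a direction.

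Genes of other cell types that carry these tetraspanins had the following summed levels. Platelet genes were at 337 to 385 normalized counts with isotype control against 320.2 to 335 with DTA-1, nearly all from the integrin gene Itgb3, and Gp6 was at 0. Fibroblast genes were at 11.0, 6.07 and 16.0 with isotype control against 3.23, 2.75 and 7.72 with DTA-1. Endothelial genes were at 22.0 to 27.6 against 13.8 to 21.8, mostly Pecam1, with Cdh5, Emcn and Cldn5 at 0. The sort required CD45, a leukocyte antigen that fibroblasts and endothelial cells lack. Their part in the low counts of Cd9, Cd151 and Cd63 was not tested.

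All 7 members passed the filter on low counts. With all 6 libraries the edgeR quasi-likelihood test, at an adjusted p under 0.05 together with 1.5-fold change, called 0 of the 7, where it called 0% of 14361 genes. At an unadjusted p under 0.05 with the same fold 1 of the 7 and 337 of 14361 genes were past the threshold. DESeq2's Wald test called 0 of the 7 and 25 of the 25247 genes it tested. Leaving out DTA-1 replicate 1, edgeR called 1 of 7, Cd82, where 0.744% of 14911 genes were. After TMM scaling the groups did not overlap with DTA-1 higher in 1 of 7, Cd53, against 5.29% of all genes tested. They did not overlap with DTA-1 lower in 0 of 7, against 6.04%. These counts come from the contrast in view of which the genes were chosen, and nothing is read from them.

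To compare levels between genes, normalized counts were divided by the length of merged exons in kb. In isotype control Cd53 was at 1482 ± 49.4 per kb, Cd82 at 186 ± 7.04, Cd81 at 108 ± 5.49 and Cd37 at 84.6 ± 2.35 (SD, n = 3). Cd63 was at 2.26 ± 0.604, Cd151 at 0.688 ± 0.210 and Cd9 at 0.378 ± 0.403. The order from Cd53 to Cd63 was the same in all 6 libraries, and the 6-library ranges of neighbours in it did not overlap. Cd151 (0.444 to 0.931 per kb) and Cd9 (0.0633 to 0.936 per kb) overlapped, and Cd9 was above Cd151 in isotype control replicate 1 and DTA-1 replicate 3. The same order was found per kb of the longest annotated coding sequence.

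Beside the other tetraspanins with a mean of at least 10 normalized counts, Cd53 had rank 1, Cd82 rank 3, Cd81 rank 5 and Cd37 rank 6 of 15 genes by isotype control mean per kb. Tspan13 had rank 2, at 268 ± 7.17 per kb, and its 6-library range of 245 to 276 lay above the isotype control libraries of Cd82 and below DTA-1 replicates 2 and 3 of Cd82. Tspan31 had rank 4, at 109 ± 7.38, and its range overlapped that of Cd81. The Tspan31 level is uncertain, since the gene overlaps Cdk4 on the opposite strand, which had more counts, and the use of strand in counting is not given in the sources used here. Tspan14 (57.8 ± 4.51 per kb), Tspan32 (37.1 ± 1.89), Tspan17 (16.1 ± 1.62), Tspan4 (8.53 ± 0.0806), Tspan3 (6.88 ± 0.846) and Tspan5 (2.37 ± 0.523) had isotype control means between those of Cd37 and Cd63. The 6-library range of Tspan5 (1.62 to 2.74 per kb) overlapped that of Cd63 (1.61 to 2.81), so these genes were not separated. Tspan14 is one of the tetraspanins that carry the protease ADAM10 to the cell surface, as are Tspan5 and Tspan17.

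**Figure D2:**
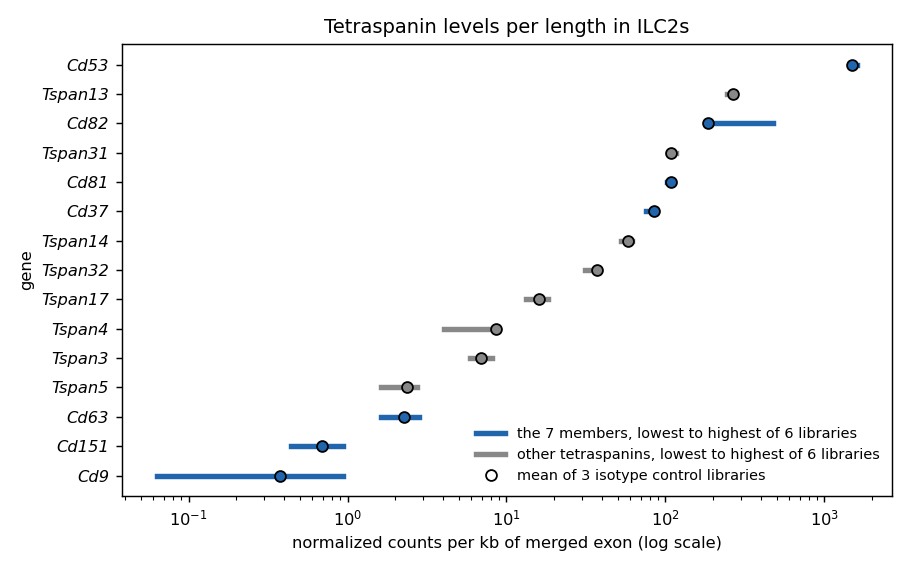
Normalized counts per kb of merged exon (log scale) of the 7 members (blue) and the 8 other tetraspanins with a mean of at least 10 normalized counts (grey), with the range of the 6 libraries as a line and the mean of the 3 isotype control libraries as a point. Cd53 lies far above the others, and the line of Cd82 reaches from 181 to 474, past the level of Tspan13.

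The genes overlapping the members on the opposite strand had few counts beside them. R74862 had 421 counts over the 6 libraries against 62152 for Cd81, and Tead2 had 152 against 57755 for Cd37. Gm10804 had 14 counts against 163175 for Cd82. The share was larger for Cd151, where Gm10575 had 19.95 counts against 356. Family members also lie close to one another. Tspan4 lies 3766 bp from Cd151, Tspan32 lies 33094 bp from Cd81, and Tspan18 lies 84605 bp from Cd82. Tspan18 did not pass the filter, with 0, 0 and 5 counts with isotype control against 8, 11 and 21 with DTA-1. It overlaps Trp53i11 on the opposite strand, which had 26663 counts, so that its few counts are uncertain. Tspan15, another family gene that did not pass, went the other way, with 11, 3 and 6 counts with isotype control against 0, 0 and 0 with DTA-1.

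Of the 24 other tetraspanins 12 passed the filter, and none was called with all 6 libraries (edgeR quasi-likelihood test, smallest adjusted p = 0.691). None of the 12 was past the threshold at an unadjusted p under 0.05 with 1.5-fold change, beside 337 of 14361 genes. DESeq2 called 0 of the other tetraspanins, beside 25 of the 25247 genes it tested. The log2 fold change was above 0 in 4 of the 12 and below 0 in 8, with a median of −0.05. Over all genes tested it was above 0 in 6901 and below 0 in 7460, with a median of −0.01. Tspan13 had 662 ± 17.7 normalized counts with isotype control and 644 ± 36.0 with DTA-1 (adjusted p = 0.925, edgeR), and Tspan32, which is expressed mainly in blood cells, at 231 ± 11.8 and 210.2 ± 17.4 (adjusted p = 0.738, edgeR). Tspan31, Tspan14, Tspan17, Tspan3 and Tspan5 had adjusted p of 0.864 to 0.982 by edgeR.

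Tspan4, a tetraspanin known from migrasomes, the vesicles left by migrating cells, was lower in the libraries in which Cd82 was higher. It had 18.7, 18.7 and 18.4 normalized counts with isotype control, against 19.3, 8.80 and 10.3 with DTA-1. With all libraries the log2 fold change was −0.54 (SE 0.24, adjusted p = 0.691, edgeR). Without DTA-1 replicate 1 it was −0.96 (adjusted p = 0.0124, edgeR), and Tspan4 was the 1 gene called among 15 other tetraspanins tested there, beside 0.744% of all genes, while the adjusted p over all alternatives ranged from 0.0124 to 0.999. Tspan4 overlaps Chid1 on the opposite strand, which had 12127 counts against 3163, so that the level of Tspan4 is uncertain where strand was not used.

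**Figure D3:**
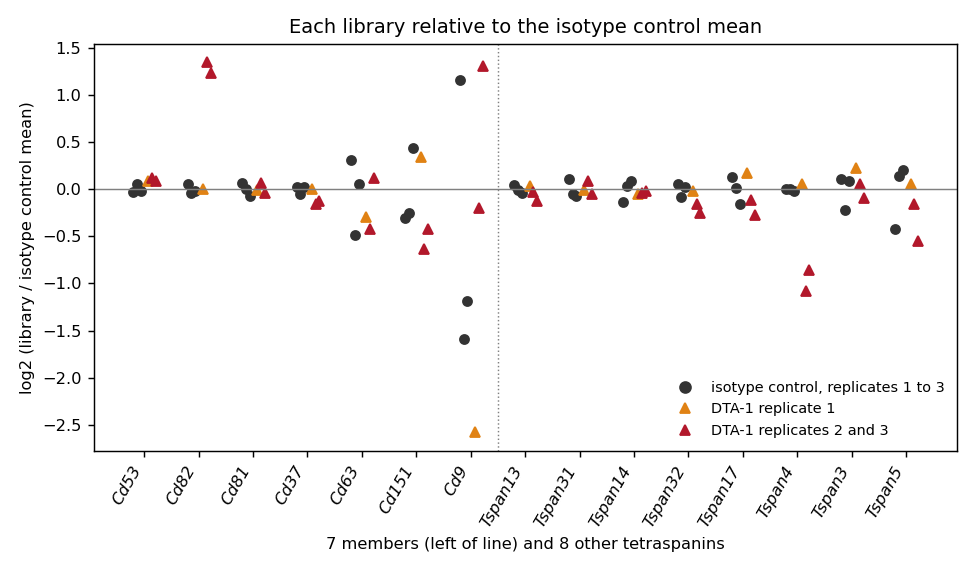
Log2 ratio of each library to the isotype control mean for the 7 members (left of the dotted line) and the 8 other tetraspanins with a mean of at least 10 normalized counts, with isotype control as circles and DTA-1 as triangles (DTA-1 replicate 1 in orange). Cd82 (1.35 and 1.24) and Tspan4 (−1.08 and −0.85) stand away from 0 in DTA-1 replicates 2 and 3 with the other libraries near 0, whereas Cd9 is scattered in both groups.

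A list of 30 genes whose proteins bind or act with tetraspanins, such as integrins, proteases and immunoglobulin superfamily proteins, was examined next. Like the other tetraspanins above and the endosome genes below, it was chosen with earlier results of these data known. The calls, medians and p-values of these lists are therefore given as a description. Of the 30 partner genes 25 passed the filter and none was called with all 6 libraries (edgeR, smallest adjusted p = 0.627). At an unadjusted p under 0.05 with 1.5-fold change 2 were past the threshold, beside 337 of 14361 genes. DESeq2 called 0 partner genes, beside 25 of the 25247 genes it tested. The log2 fold change was above 0 in 18 of the 25 and below 0 in 7, with a median of 0.15. Over all genes tested it was above 0 in 6901 and below 0 in 7460, with a median of −0.01. Without DTA-1 replicate 1, 2 of 27 were called, both higher in DTA-1, beside 0.744% of all genes, and the median was 0.22. In that fit the integrin genes Itgb7 (log2 fold change −0.25, adjusted p = 0.0360, edgeR) and Itga4 (−0.56, adjusted p = 0.0391, edgeR) were lower with DTA-1. They missed only the 1.5-fold limit.

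The 2 partner genes called were Hbegf and Icam1. Hbegf encodes a membrane-anchored growth factor known to bind CD9. It had 7.15, 6.96 and 6.52 normalized counts with isotype control, against 7.80, 15.7 and 16.5 with DTA-1, so that the groups did not overlap, although DTA-1 replicate 1 exceeded the highest isotype control library only slightly. The log2 fold change was 0.95 (SE 0.25, adjusted p = 0.627, edgeR) with all libraries and 1.23 (adjusted p = 0.00524, edgeR) without DTA-1 replicate 1, and over all alternatives the adjusted p was 0.00524 to 0.999. Icam1, an adhesion molecule that tetraspanins gather on the cell surface, had 70.4, 63.6 and 64.4 with isotype control, against 58.5, 114 and 127 with DTA-1. Its log2 fold change was 0.60 (SE 0.23, adjusted p = 0.657, edgeR), and 0.87 (adjusted p = 0.000851, edgeR) without DTA-1 replicate 1, with a range of 0.000851 to 0.999 over all alternatives. Adam17, a membrane protease that associates with CD9, was at 111 ± 9.83 and 129.9 ± 12.9, with a log2 fold change of 0.22 (SE 0.09, adjusted p = 0.657, edgeR).

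Of 21 genes of endosomal sorting, exosomes and lysosomes 20 passed the filter, and none was called with all 6 libraries (edgeR, smallest adjusted p = 0.632). At an unadjusted p under 0.05 with 1.5-fold change 1 was past the threshold, beside 337 of 14361 genes. DESeq2 called 0 of this list, beside 25 of the 25247 genes it tested. The median log2 fold change of the 20 genes was 0.02, against −0.01 over all genes tested. Without DTA-1 replicate 1, 1 of 20 was called, beside 0.744% of all genes. This was Sdc4, a heparan sulfate proteoglycan of the syndecan family, which had 9.89, 10.6 and 12.0 normalized counts with isotype control, against 9.02, 26.7 and 24.6 with DTA-1. Its log2 fold change was 0.89 (SE 0.31, adjusted p = 0.632, edgeR), and 1.24 (adjusted p = 0.00243, edgeR) without DTA-1 replicate 1, with a range of 0.00243 to 0.999 over all alternatives. Lamp1, a lysosomal membrane protein often examined with CD63, was at 363 ± 10.9 and 337 ± 2.52 (adjusted p = 0.733, edgeR), and Ap2m1, a subunit of the clathrin adaptor at the plasma membrane, at 709.6 ± 20.7 and 764 ± 42.9 (adjusted p = 0.744, edgeR).

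The genes with the pattern most like that of Cd82 over the 6 libraries were sought among 4440 genes with a mean of at least 50 normalized counts. Likeness was the root mean square difference of log2 normalized counts, each centred on its own mean, and its median over all these genes was 0.606. The 5 nearest were Upp1 (0.0675), Nfkbia (0.0711), Csf2 (0.096), Il1r2 (0.0975) and Ccdc184 (0.106). Upp1 encodes a uridine phosphorylase, Nfkbia the NF-κB inhibitor IκBα, Csf2 the cytokine GM-CSF, and Il1r2 the decoy receptor for IL-1. In DTA-1 replicates 2 and 3 Upp1 was 2.56 times, Nfkbia 2.28 times, Csf2 2.19 times, Il1r2 2.26 times and Ccdc184 2.23 times its isotype control mean, against 2.45 times for Cd82. By construction the 5 genes were also near their isotype control level in DTA-1 replicate 1. The likeness rests on 6 libraries of which 2 differ from the rest, and it says nothing of shared control.

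**Figure D4:**
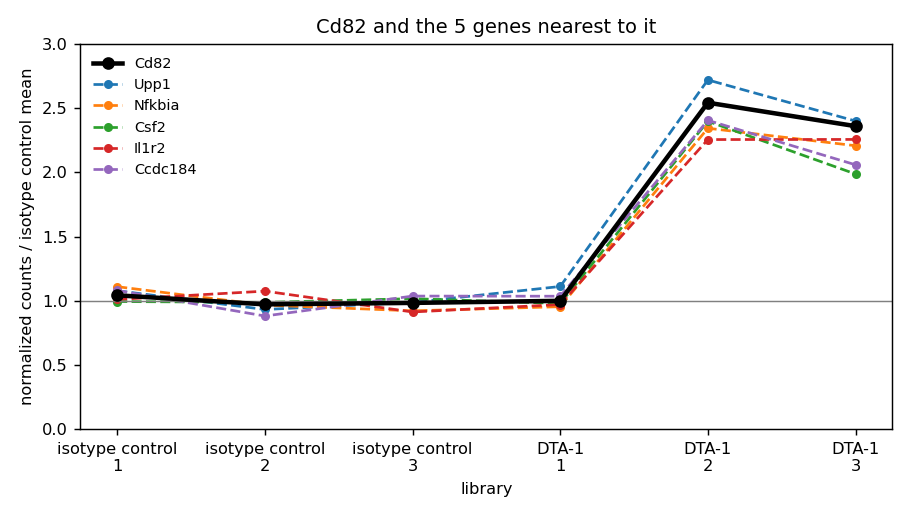
Normalized counts of Cd82 (black) and of its 5 nearest genes in each library, divided by the isotype control mean of each gene. All 6 genes lie near 1 in the isotype control libraries and in DTA-1 replicate 1, and Cd82 stands at 2.45 times its isotype control mean over DTA-1 replicates 2 and 3.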

How the data were processed

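The authors sequenced RNA of ILC2s in 3 isotype control and 3 DTA-1 libraries, and deposited expected counts, estimates of the reads from each gene, with no normalization applied. Of these values 77.8% were whole. The submitters' processing notes name bcl2fastq 2.17.1.14, STAR 2.5.3a, Partek and the mm10 build. The annotation, the quantification settings and the use of strand are not given in the sources used here. Reads shared between overlapping genes or copies may therefore be divided in ways that affect low genes. The culture time is that of the labels, and the study's results text gives a shorter one.

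The expected counts were rounded, filtered with filterByExpr (14361 genes kept), scaled by TMM and fitted with the edgeR 4.0.16 quasi-likelihood test in R 4.3.3, with Benjamini-Hochberg adjustment over all genes tested and no covariate (common dispersion 0.0256). Genes were called at an adjusted p under 0.05 with at least 1.5-fold change. Alternatives used limma 3.58.1 with a prior count of 2, DESeq2 1.42.0, other scalings and filters, a replicate block, and each library left out in turn. Plots were made in Python 3.11.15 with matplotlib 3.10.9.

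Coordinates are 1-based. The table's ends lie 1 base past those of GENCODE M21 in 47741 of 49721 shared symbols, and GENCODE ends are printed. Exon lengths come from the same release, and RefSeq promoters matched all 7 genes.

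Besides the 7 genes, those named are other tetraspanins with a mean of at least 10 normalized counts or a call in any fit, genes of the partner and endosome lists with a call in any fit or among the 3 smallest unadjusted p of their list, and the 5 genes nearest to Cd82 (with 0.1 added before log2). Tspan18, Tspan15, Itgb7 and Itga4 were added after their values were seen. The members and lists were chosen with earlier results of these data known. Marker lists of ILC2s, B cells, macrophages, mast cells and basophils, platelets, fibroblasts, endothelial cells and T cells served only as levels beside the members. Macrophage genes summed to 6.44 to 12.2 normalized counts with isotype control and 8.67 to 11.8 with DTA-1, and T cell genes to 223 to 262 and 241 to 265, mostly Bcl11b. The ILC2 genes summed to 14572 to 15335 and 15556 to 20175. Among them Il5 had 5063 to 5493 with isotype control against 5627, 9695 and 8899 with DTA-1. Gata3, in contrast, had 1688 to 1716 against 1678, 1525 and 1607, so the sum does not stand for each gene.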

Additional observations from a re-analysis of the deposited data

How the results depend on the processing

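With all 6 libraries and edgeR 0 of 14361 genes were called. DESeq2's Wald test called 25 of 25247, the fit without a filter 2, the fit with a replicate block 1, and an unadjusted p with 1.5-fold change 337 of 14361. Leaving out each library in turn gave 0 to 111 calls over all genes, 0 to 1 among other tetraspanins, 0 to 2 among partners and 0 to 1 among endosome genes, and each maximum came from leaving out DTA-1 replicate 1. An unadjusted p gave 2 calls among partners and 1 among endosome genes. The log2 fold change of Cd53 was 0.063 with total counts. Same-numbered libraries did not deviate together from their group means (r of −0.0069, −0.00285 and 0.0152), and the number was not read as a pairing. These values cannot exclude a pairing, since DTA-1 replicate 1 stood apart from the other libraries of its group and so moved the mean of that group. Cd9 and Cd151 had 4 to 90 counts per library, too few for a direction. Coding lengths from RefSeq proteins were not run, and the longest annotated coding sequence, chosen after seeing the data, was used instead.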
